A study of Mus musculus with 6 samples.

Results

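The series was examined for 10 transcription factors that define and maintain endothelial identity. They were Sox7, Sox17 and Sox18 of the SoxF family, the ETS factors Erg and Fli1, the basic helix-loop-helix factor Tal1, the Krüppel-like factors Klf2 and Klf4, and the pair Meox2 and Tcf15. They were chosen by gene symbol, each symbol matched 1 row, and the 10 rows stood among 45038 genes in the deposited table. All mice were of the C57BL/6 strain and carried Tie2-Cre;Rosa-LSL-tdTomato, and the age given, for the infarct surgery, was 6 to 8 weeks. The 3 MI libraries came from infarct tissue 3 weeks after the left anterior descending coronary artery was tied off, and the 3 Normal libraries came from left ventricle labelled as without that surgery. In both groups the cells sequenced were tdTomato+F4/80- cells sorted from a collagenase digest, so the controls shared the Tie2-Cre lineage mark. The Tie2 promoter is active in endothelium and in part of the blood lineage, and F4/80 marks macrophages. Titles number the libraries Ms1535, Ms1537 and Ms1608 in each group, and group values below follow that order. Whether equal numbers mark 1 mouse, and whether libraries of a group came from separate animals, is not given in the sources used here, so a p-value speaks only of the spread among these libraries.

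Endothelial identity rests on a small network of DNA-binding proteins that act on shared enhancers. ERG and FLI1 bind ETS sites in genes such as Cdh5, SoxF proteins join them in arterial and lymphatic programmes, and TAL1 works with LMO2 and GATA2 at enhancers active in both blood and endothelium. KLF2 and KLF4 are induced by laminar flow through a kinase cascade that ends on MEF2 factors, and they keep the vessel wall quiescent and anti-thrombotic. MEOX2 and TCF15 form a heterodimer characteristic of heart capillaries, where it drives genes of fatty acid uptake. Fli1, Klf2 and Klf4 are also transcribed in leukocytes, and Tal1 in red cell, mast cell and megakaryocyte lineages.

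Of the 10 members, 5 had an entry among the RefSeq promoter sequences (GRCm38.p6), namely Erg, Tal1, Klf2, Klf4 and Meox2, with 8 start sites between them. Upstream sequences are shown for the 3 start sites that hold a match to the motif of MEF2, the factor family through which flow acts on Klf2, and for Klf4, the other flow-induced factor, which holds none. Each runs 5′ to 3′ on the strand of the gene and ends at the base before the start site, except Klf2, which ends 29 bases earlier, where GENCODE places the start of the gene. Capitals mark the MEF2 match, or in Klf4 a CAGCTG E-box. The windows are chr8:72318812-72319032 (plus strand) for Klf2, chr12:37108290-37108539 (plus strand) for Meox2, chr16:95530366-95530615 (minus strand) for the second of 3 Erg start sites, which lies inside the annotated Erg gene, and chr4:55532476-55532725 (minus strand) for Klf4.
Klf2: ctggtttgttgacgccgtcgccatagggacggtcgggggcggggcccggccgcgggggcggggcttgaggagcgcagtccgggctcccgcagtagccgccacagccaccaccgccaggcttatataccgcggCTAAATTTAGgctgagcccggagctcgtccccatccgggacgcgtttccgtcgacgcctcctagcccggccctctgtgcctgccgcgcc
Meox2: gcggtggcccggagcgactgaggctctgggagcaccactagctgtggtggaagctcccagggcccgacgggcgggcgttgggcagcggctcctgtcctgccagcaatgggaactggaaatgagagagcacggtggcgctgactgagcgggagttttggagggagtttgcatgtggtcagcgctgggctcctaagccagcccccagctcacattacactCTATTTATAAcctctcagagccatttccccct
Erg, second start site: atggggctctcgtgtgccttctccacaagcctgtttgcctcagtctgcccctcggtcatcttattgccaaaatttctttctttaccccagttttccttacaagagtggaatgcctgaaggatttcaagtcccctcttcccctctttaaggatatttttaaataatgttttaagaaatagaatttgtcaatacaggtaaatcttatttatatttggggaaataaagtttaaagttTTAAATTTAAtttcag
Klf4: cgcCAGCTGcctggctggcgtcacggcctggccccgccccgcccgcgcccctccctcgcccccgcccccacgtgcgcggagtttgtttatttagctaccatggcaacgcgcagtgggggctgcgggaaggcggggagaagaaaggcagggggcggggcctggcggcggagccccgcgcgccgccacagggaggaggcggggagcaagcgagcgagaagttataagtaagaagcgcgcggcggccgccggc
The MEF2 match began 118 bases before the start in Klf2, 32 bases before it in Meox2 and 16 bases before the second start of Erg. Both strands of the 250 bases before each start were searched, and 2.92% of 32817 such windows held a MEF2 match. Of the other motifs, the E-box CAGCTG was in the Klf4 window alone (13.0% of all windows). The ETS core AGGAAG (29.5%) and the GATA motif AGATAAG (2.74%) were in the window of the third Erg start. The KLF motif CCACCC (28.1%) was in the searched window of Klf2, 19 to 14 bases before the start. It thus fell in the 29 bases not shown above, past the point where GENCODE places the start of the gene. The longer ETS motif CCGGAAG (6.90% of all windows), the SOX motif ACAAAG (16.5%), the E-box CAGATG (14.5%) and the SRF motif (1.47%) matched none of the 8 windows. A match only describes the letters of a window. Of the genes with a MEF2 match, Klf2 had its highest value and Meox2 and Erg their lowest in the library that differed most from the rest.

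That library was Normal Ms1608. Across 10168 genes, which are not independent replicates, its log2(FPKM + 1) values correlated at 0.54 to 0.68 with those of the other libraries, and the other libraries correlated at 0.80 to 0.92 with one another (Pearson). FPKM counts fragments per kilobase of transcript and per 1 M mapped fragments. The 12 endothelial markers summed to 9.62 FPKM in Normal Ms1608, to 913 and 1295 FPKM in the other Normal libraries, and to 271 to 1090 FPKM in MI. The 10 leukocyte markers summed to 4087 FPKM in Normal Ms1608, to 293 and 452 FPKM in the other Normal libraries, and to 2279 to 2545 FPKM in MI. No marker of either list was at 0 in any library. Depth, read from the steps of low values, was 34.3 to 48.0 M fragments per library. Values without Normal Ms1608 stand beside those that it turned in direction or moved by over 1.5 times. In sorted mixtures of this kind, fewer cells of a type and less RNA per cell cannot be told apart.

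**Figure D1:**
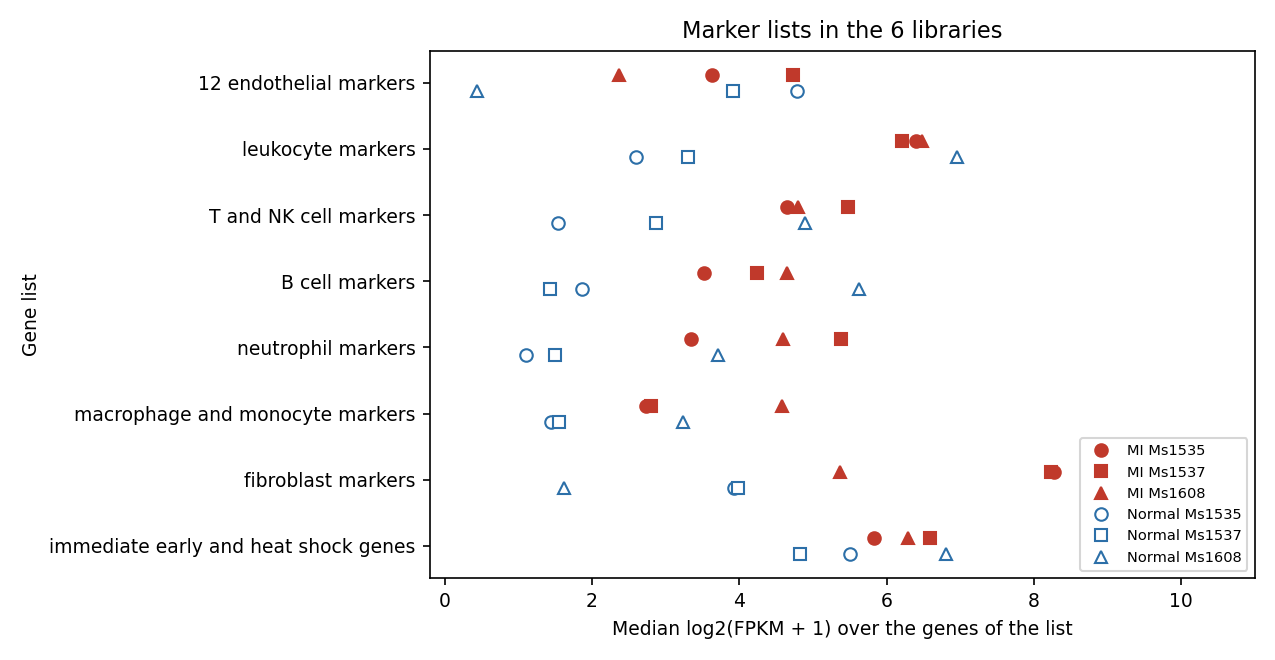
Median log2(FPKM + 1) (horizontal axis) of 8 marker lists (rows) in the 3 MI libraries (filled) and the 3 Normal libraries (open), with a shape for each title number. Normal Ms1608 has the lowest median for the endothelial markers (0.44) and the highest for the leukocyte markers (6.96).

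No member passed the test in either direction. All 10 were above the filter of at least 1 FPKM in at least 3 libraries, and 0 of 10 had an adjusted p under 0.05 or an unadjusted p under 0.05 (limma on log2(FPKM + 1), adjusted over 10168 genes). Of all tested genes, 0.00983% passed, which was 1 gene, the predicted gene Gm24890, named here after its values were seen and listed at 0 in all Normal libraries, and 16.3% had an unadjusted p under 0.05. All 10 members had a positive MI minus Normal difference on the deposited scale, and so did 87.2% of all tested genes. That count was 2 of 10 after median-ratio scaling, 4 of 10 after upper-quartile scaling and 2 of 10 after quantile scaling. The median of the members was 0.66 log2 units and that of all tested genes 0.78, and the scalings moved the latter to -0.03, 0.20 and -0.05. Relative to all tested genes, the median of the members lay at -0.13 without scaling and at -0.30, -0.28 and -0.35 with the 3 scalings in that order. Without Normal Ms1608 the median of the members was 0.04, which lay at -0.79 relative to the 0.83 of all tested genes. In that comparison 6 of 10 members had a positive difference, against 87.7% of all tested genes, and 0 of 10 passed, against 4.51%. Leaving out MI Ms1537, the MI library richest in endothelial markers, gave a median of 0.15 for the members.

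**Figure D2:**
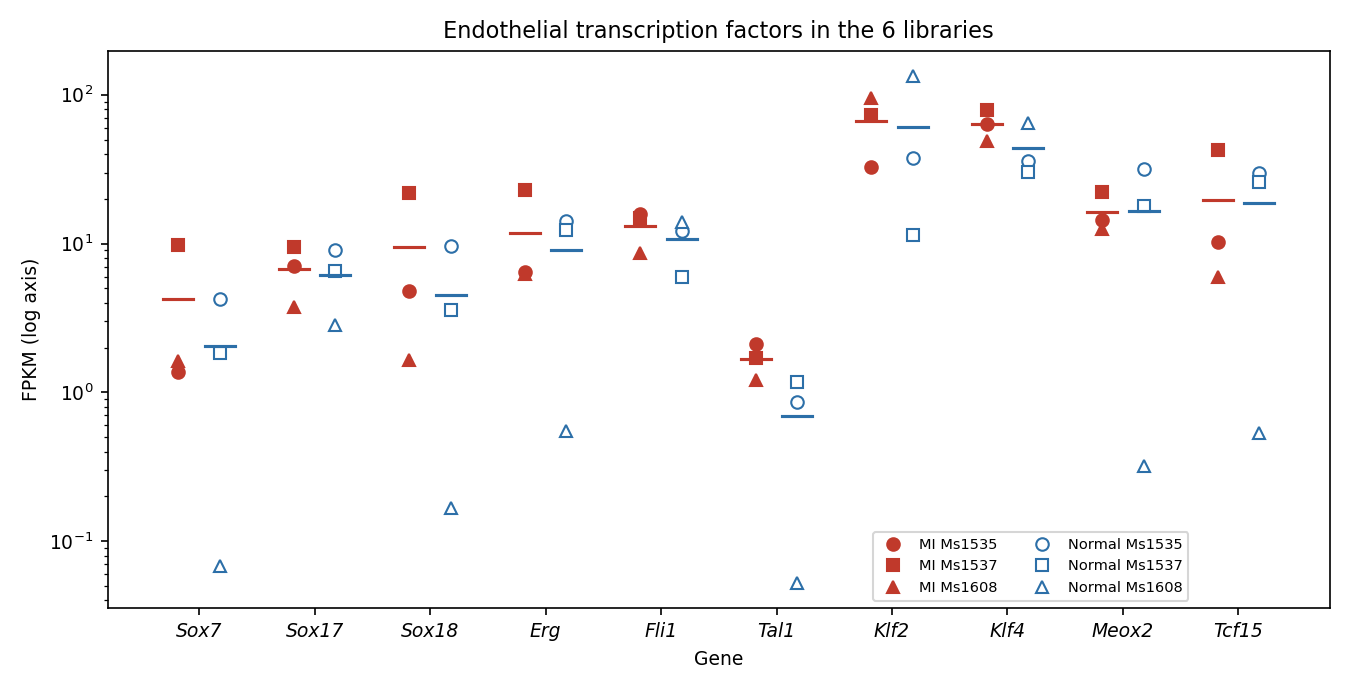
FPKM on a log axis for the 10 factors, with the 3 MI libraries filled, the 3 Normal libraries open, a shape for each title number and a bar at each group mean. Sox7, Sox18, Erg, Tal1, Meox2 and Tcf15 lie below 1 FPKM in Normal Ms1608, whereas Klf2 is highest there at 133 FPKM.

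The SoxF factors carry an HMG box and act redundantly in vessel growth and arterial identity. Sox7 had MI values of 1.38, 9.74 and 1.62 FPKM and Normal values of 4.27, 1.85 and 0.0683 FPKM. MI Ms1537 was the highest library and Normal Ms1608 the lowest, and the groups overlapped. In Normal Ms1608 about 7.97 fragments were implied on the longest transcript of Sox7 (chr14:63943673-63950732, GRCm38, protein-coding), where 3 fragments would give 0.0257 FPKM. For Sox7 the difference came to 0.69 log2 units with SE 0.79 and a limma adjusted p of 0.670, and leaving out Normal Ms1608 gave 0.07 with SE 0.72 and a limma adjusted p of 0.950. Without MI Ms1537 the difference turned to -0.014.

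Sox18 (chr2:181669836-181671640), which is mutated in a human lymphatic and vascular disorder, had the same libraries at both ends. Sox18 had MI values of 4.77, 21.8 and 1.65 FPKM and Normal values of 9.69, 3.59 and 0.167 FPKM. The MI libraries alone spanned 13.2-fold, a wider range than for any of the other 9 factors, and enclosed Normal Ms1535 and Ms1537. For Sox18 the difference came to 0.87 log2 units with SE 1.02 and a limma adjusted p of 0.676, and leaving out Normal Ms1608 gave 0.0087 with SE 0.87 and a limma adjusted p of 0.994.

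Sox17 (chr1:4490931-4497354), the SoxF member most tied to arterial endothelium, varied least of the SoxF factors. Sox17 had MI values of 7.11, 9.48 and 3.77 FPKM and Normal values of 9.08, 6.49 and 2.82 FPKM. Normal Ms1608 was again the lowest library, but only 2.76-fold below the mean of the other Normal libraries, whereas Sox7 and Sox18 were 44.8-fold and 39.8-fold below it. About 323 fragments of Sox17 were implied in that library, against 9.09 of Sox18. The gene shares 804 exonic bases with Gm37587 on the opposite strand, and with the strand setting of the counting not given in the sources used here, reads in that stretch cannot be assigned to either gene. Gm37587 itself was at most 0.191 FPKM in any library. For Sox17 the difference came to 0.16 log2 units with SE 0.71 and a limma adjusted p of 0.920, and leaving out Normal Ms1608 gave -0.23 with SE 0.53 and a limma adjusted p of 0.756. Without MI Ms1537 the difference was -0.09.

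Erg (chr16:95359169-95586593) encodes a protein that keeps junction genes such as Cdh5 active and represses inflammatory genes. Erg had MI values of 6.49, 22.8 and 6.24 FPKM and Normal values of 14.3, 12.4 and 0.547 FPKM. Normal Ms1535 and Ms1537 lay between MI Ms1537 and the other MI libraries, and Normal Ms1608 was 24.4-fold below the mean of these Normal libraries. For Erg the difference came to 0.68 log2 units with SE 0.99 and a limma adjusted p of 0.749, and leaving out Normal Ms1608 gave -0.39 with SE 0.62 and a limma adjusted p of 0.646.

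Fli1 (chr9:32422204-32542861), an ETS factor that blood cells also use, did not share that pattern. Fli1 had MI values of 15.7, 14.9 and 8.66 FPKM and Normal values of 12.2, 5.94 and 13.9 FPKM. Normal Ms1608 had the highest Normal value, 1.54 times the mean of the other Normal libraries, and the highest library of all was MI Ms1535. For Fli1 the difference came to 0.30 log2 units with SE 0.68 and a limma adjusted p of 0.843, and leaving out Normal Ms1608 gave 0.52 with SE 0.52 and a limma adjusted p of 0.479. Without Normal Ms1537 the difference was -0.034.

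Tal1 (chr4:115056426-115071755), which specifies blood and endothelial progenitors, was the lowest member in every library but MI Ms1535, where Sox7 was lower. Tal1 had MI values of 2.12, 1.69 and 1.21 FPKM and Normal values of 0.867, 1.17 and 0.0528 FPKM. The lowest MI value stood just above the highest Normal value, so the groups did not overlap. That held for 1 of 10 members, where 25% of all tested genes had MI wholly above Normal, and for 0 of 10 in the other direction, where 0.354% did. For Tal1 the difference came to 0.71 log2 units with SE 0.42 and a limma adjusted p of 0.402, and leaving out Normal Ms1608 gave 0.39 with SE 0.39 and a limma adjusted p of 0.473. The log2(FPKM + 1) scale understates changes at such levels, and a pseudocount of 0.1 gave 1.60 with a limma adjusted p of 0.444. That pseudocount gives more weight to Normal Ms1608, where about 7.94 fragments of Tal1 were implied, and it was not run without that library. Mean MI was 1.64 times the mean of Normal Ms1535 and Ms1537. Mean Tal1 reached 1.67 ± 0.457 FPKM over the MI libraries, against 0.697 ± 0.578 FPKM over the Normal libraries (SD, n = 3 each).

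The Krüppel-like factors were the most abundant members by group mean. Klf2 (chr8:72319033-72321656) is induced by flow in endothelium and is also needed for lymphocyte quiescence. Klf2 had MI values of 32.9, 72.8 and 95.7 FPKM and Normal values of 37.4, 11.4 and 133 FPKM. Normal Ms1608 was the highest of the 6 libraries, 5.47 times the mean of the other Normal libraries, and MI Ms1535 lay below Normal Ms1535. For Klf2 the difference came to 0.64 log2 units with SE 0.91 and a limma adjusted p of 0.742, and leaving out Normal Ms1608 gave 1.51 with SE 0.64 and a limma adjusted p of 0.147, the largest value of the 10 in that comparison. Without Normal Ms1537 the difference turned to -0.21.

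Klf4 (chr4:55527143-55532466) shares targets with Klf2 and is also expressed in monocytes. Klf4 had MI values of 63.8, 78.6 and 49.3 FPKM and Normal values of 35.8, 30.1 and 64.7 FPKM. All MI libraries exceeded Normal Ms1535 and Ms1537, while Normal Ms1608 lay above MI Ms1535 and Ms1608. For Klf4 the difference came to 0.59 log2 units with SE 0.64 and a limma adjusted p of 0.642, and leaving out Normal Ms1608 gave 0.91 with SE 0.43 and a limma adjusted p of 0.178. Without that library, MI lay wholly above Normal for 2 of 10 members, Klf4 and Tal1, against 52.6% of all tested genes, and wholly below it for 0 of 10, against 1.75%. Among the tested genes of a library, Klf4 held percentiles from 89.2 to 91.4 in all 6, whereas Klf2 ranged from 79.8 to 95.4.

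Leukocyte and immediate early transcripts were measured beside the Krüppel-like factors. Ptprc, the pan-leukocyte antigen CD45, was at 68.7, 77.9 and 75.9 FPKM in MI with 3.13, 4.72 and 174 FPKM in Normal. Fos, an immediate early gene, was at 324, 399 and 320 FPKM in MI with 67.1, 67.7 and 354 FPKM in Normal. For both genes Normal Ms1608 lay above the other Normal libraries and within or above the MI range. With all 6 libraries neither passed the limma threshold, Ptprc with a difference of 2.23 (adjusted p = 0.376) and Fos with 1.55 (adjusted p = 0.317). Without Normal Ms1608, both passed the limma threshold, Ptprc with a difference of 3.95 (adjusted p = 0.0207) and Fos with 2.34 (adjusted p = 0.0226). In that comparison 4.51% of all tested genes passed. With median-ratio or quantile scaling added, limma called only 2 genes higher in MI in each case. The 13 immediate early and heat shock genes, which tissue digestion also induces, summed to 1234 to 1519 FPKM in MI and 359 to 2027 FPKM in Normal, with no gene at 0. Hspa1a, a heat shock gene of that list chosen after its values were seen, was at 35.6, 122 and 158 FPKM in MI. In Normal it was at 107, 44.6 and 45.9 FPKM, and so was not raised in Normal Ms1608. It was the exception, since every other gene of the list was higher in Normal Ms1608 than in both other Normal libraries. Among them, Dusp1 was at 60.6, 46.7 and 632 FPKM in Normal, and the heat shock gene Hspa1b at 26.8, 9.93 and 30.3 FPKM. Leaving Normal Ms1608 aside, Ptprc, Fos and Klf4 had MI wholly above Normal, as did 52.6% of all tested genes. Klf2 did not, with MI Ms1535 at 32.9 FPKM and Normal Ms1535 at 37.4 FPKM. By cell type, T and NK cell markers (10 genes) summed to 337 to 1226 FPKM in MI and 85.4 to 1025 FPKM in Normal, and B cell markers (6 genes) to 489 to 881 FPKM and 46.7 to 1225 FPKM. Neutrophil markers (7 genes) summed to 4536 to 12032 FPKM in MI and 2083 to 13380 FPKM in Normal. Macrophage and monocyte markers (10 genes) summed to 979 to 2418 FPKM in MI and 167 to 3192 FPKM in Normal, and Adgre1, the F4/80 gene that the sort selected against, was at most 7.21 FPKM in any library. In each of these lists the highest Normal sum was that of Normal Ms1608. The part of these cells and of digestion in the levels of Klf2, Klf4 and Fli1 was not tested.

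Meox2 (chr12:37108540-37179534) is a homeobox factor of heart and muscle capillaries. Meox2 had MI values of 14.4, 22.2 and 12.4 FPKM and Normal values of 31.8, 17.8 and 0.318 FPKM. Normal Ms1608 lay 78.0-fold below the mean of the other Normal libraries, the widest gap among the members, with about 26.0 fragments implied. For Meox2 the difference came to 0.86 log2 units with SE 1.11 and a limma adjusted p of 0.711, and leaving out Normal Ms1608 gave -0.56 with SE 0.49 and a limma adjusted p of 0.426. Mean MI was 0.660 times the mean of Normal Ms1535 and Ms1537.

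Tcf15 (chr2:152143561-152149097) encodes the basic helix-loop-helix partner of MEOX2. Tcf15 had MI values of 10.2, 42.8 and 5.97 FPKM and Normal values of 29.9, 26.0 and 0.537 FPKM. MI Ms1537 exceeded Normal Ms1535 and Ms1537, and the other MI libraries lay below them. For Tcf15 the difference came to 0.47 log2 units with SE 1.20 and a limma adjusted p of 0.863, and leaving out Normal Ms1608 gave -0.94 with SE 0.74 and a limma adjusted p of 0.373, the most negative value of the 10. Without MI Ms1537 the difference was -0.30. With median-ratio scaling and without Normal Ms1608, a setting added after the data were seen, the differences were -1.97 for Tcf15 (limma adjusted p = 0.175) and -1.59 for Meox2 (limma adjusted p = 0.119), and neither passed.

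**Figure D3:**
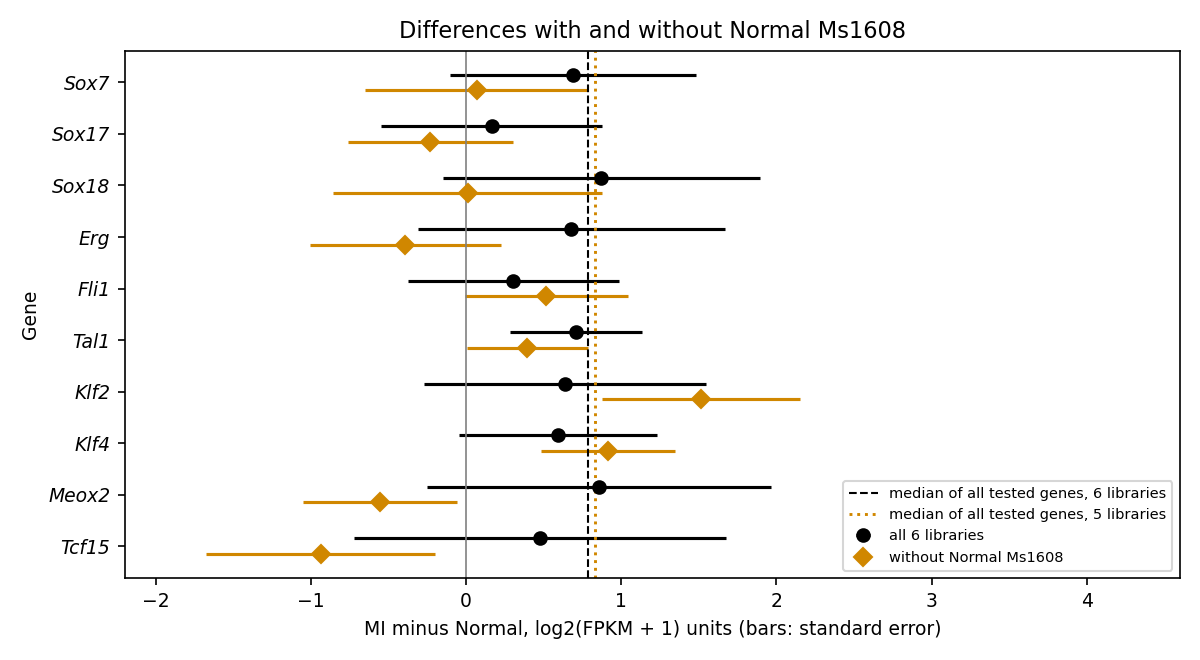
MI minus Normal difference of each factor in log2(FPKM + 1) units with its standard error, for all 6 libraries (circles) and without Normal Ms1608 (diamonds), beside the median of all tested genes (vertical lines at 0.78 and 0.83). Leaving out Normal Ms1608 moves Erg, Meox2, Tcf15 and Sox17 below 0 and Klf2 up to 1.51.

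Across the members, Normal Ms1608 was the lowest of the 6 libraries for 7 of 10 (44.1% of all tested genes) and the highest for 1 of 10 (26.8%). It lay under 0.1 times the lower of the other Normal values for 6 of 10 members, Sox7, Sox18, Erg, Tal1, Meox2 and Tcf15, and for 22.5% of all tested genes. Normal Ms1608 was the library with few endothelial and many leukocyte transcripts. There Fli1, Klf4 and Klf2 stood at 1.54, 1.96 and 5.47 times the mean of the other Normal libraries. Sox17 stood at 0.362 times that mean, and the other 6 members at 0.0518 times or less. MI Ms1537 was the highest library for 6 of 10 members (36.3%), and MI Ms1608 the lowest MI library for 8 of 10 (59.7%). Normal Ms1535 exceeded Normal Ms1537 for 9 of 10 members (62.4%), Tal1 being the exception.

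By FPKM, which is per length, Klf4 and Klf2 led the members in all 3 MI libraries, at 32.9 to 95.7 FPKM. In Normal Ms1535 Klf2 was followed by Klf4, Meox2 and Tcf15, which lay between 29.9 and 35.8 FPKM. Normal Ms1537 had Klf4 at 30.1 FPKM, Tcf15 at 26.0 FPKM and Meox2 at 17.8 FPKM ahead of Erg at 12.4 FPKM and Klf2 at 11.4 FPKM. The heart capillary pair thus stood near the Krüppel-like factors in these libraries, and in Normal Ms1608 ranked below Fli1 and Sox17. Erg at 0.547 FPKM and Tcf15 at 0.537 FPKM were too close in Normal Ms1608 to be ordered, with about 62.8 and 16.5 fragments implied. In each group, neighbours in the order of group means differed by less than the larger SD of the pair, except Klf4 and Tcf15, the second and the next gene in the order.

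Each member was also set against the 12 endothelial markers of its own library, as log2(FPKM + 1) of the member minus the mean of the markers. Meox2 stood at 0.26, -0.20 and 0.94 log2 units in the MI libraries, and the Normal libraries had 0.16, -0.07 and -0.23. Tcf15 stood at -0.20, 0.72 and -0.0069 in the MI libraries, and the Normal libraries had 0.07, 0.45 and -0.013. Erg had -0.94, -0.56 and -0.0036 in the Normal libraries. The markers themselves averaged 0.63 log2 units in Normal Ms1608, so a gene at 0 FPKM would read -0.63 there, and Sox7, at 0.0683 FPKM, read -0.54. In that library the scale therefore cannot tell whether Meox2, Tcf15 or Erg kept pace with the markers.

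Klf2 stood at 1.39, 1.47 and 3.79 log2 units relative to the markers in the MI libraries, and the Normal libraries had 0.39, -0.67 and 6.44. Klf4 had 2.33, 1.58 and 2.84 in MI, and 0.33, 0.66 and 5.41 in Normal. Fli1 had 0.38, -0.75 and 0.46 in MI, and -1.16, -1.51 and 3.27 in Normal. All 3 were highest in Normal Ms1608, where the markers were near the floor, and lowest in Normal Ms1535 and Ms1537. With all 6 libraries the exact two-sided permutation p ran from 0.4 to 1 over the members, where 3 libraries against 3 cannot go below 0.1. Without Normal Ms1608, the MI minus Normal difference was 2.36 for Klf2 and 1.76 for Klf4, each with an exact two-sided permutation p of 0.1, the smallest that 3 against 2 libraries allow. MI then lay wholly above Normal for 6 of 10 members, Sox7, Sox17, Sox18, Fli1, Klf2 and Klf4, while 73.6% of all tested genes did the same, and wholly below it for 0 of 10 (0.393%).

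**Figure D4:**
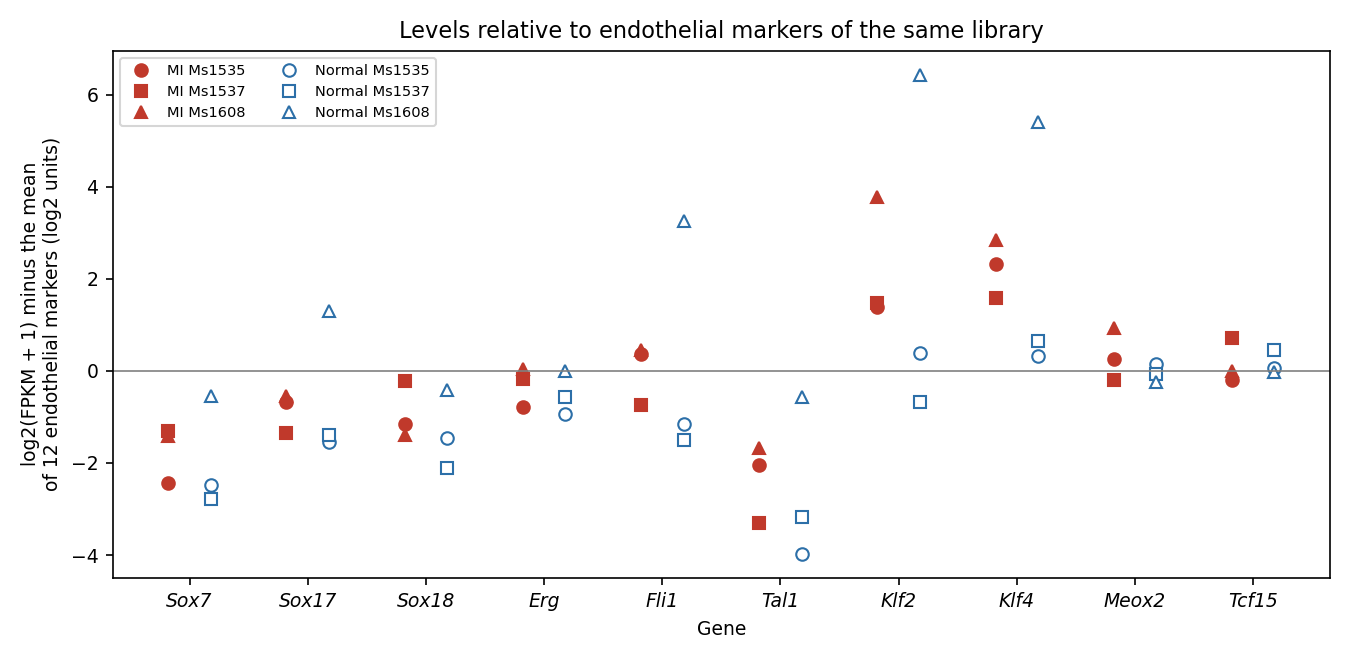
Level of each factor relative to the mean of 12 endothelial markers in the same library (vertical axis, log2 units), with MI filled, Normal open and a shape for each title number. Klf2, Klf4 and Fli1 stand at 6.44, 5.41 and 3.27 in Normal Ms1608, where a gene at 0 FPKM would stand at -0.63.

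Likeness of profile was measured as the root mean square difference between centred log2(FPKM + 1) values over the 6 libraries, which share depth and cell mixture across genes. Among the members, Fli1 and Klf4 were 0.30 log2 units apart, Sox17 and Tal1 0.42, Erg and Tcf15 0.45, Sox7 and Sox18 0.48, Sox7 and Erg 0.51, and Erg and Meox2 0.52. Many genes outside the members lay closer than these pairs. Of 10167 genes ranked by nearness, Erg was number 36 from Tcf15, and Sox7 number 36 from Sox18. Klf4 was number 249 from Fli1, Fli1 number 602 from Klf4, and Sox17 number 952 from Tal1. The nearest of all tested genes to Erg were Rassf9 (0.15) and Mecom (0.17), itself an endothelial transcription factor gene. Nearest to Tcf15 were Ushbp1 (0.17) and Podxl (0.23), a sialomucin of the vessel lining, and nearest to Sox18 were Mospd2 (0.24) and Col4a2 (0.26), a basement membrane collagen chain. Meox2 had Stx12 (0.17) and Mrpl17 (0.19), Sox7 had Aplp2 (0.17) and Ppp4r1l-ps (0.18), and Sox17 had 3222401L13Rik (0.052) and Efnb1 (0.063). The measure is compressed at low levels: in Normal Ms1608 these last genes were at 0.0601 and 0.0259 FPKM, against 1.74 and 1.48 FPKM in Normal Ms1535, a far wider gap than for Sox17 itself. The nearness of Sox17 and Tal1 has the same limit, since Tal1 was 19.3-fold and Sox17 2.76-fold lower in Normal Ms1608 than the mean of the other Normal libraries. Klf2 was nearest to Zfp942 (0.32) and S100a9 (0.33), a calprotectin subunit of neutrophils. Fli1 was nearest to Tubb5 (0.071) and Gm4978 (0.12), Klf4 to Cdk19 (0.085) and Rnf181 (0.10), and Tal1 to Wrb (0.092) and Gab1 (0.11).

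The genes around these factors were taken from fixed lists, and in each list 0 genes passed the limma threshold in either direction with all 6 libraries (0.00983% of all tested genes). Among 29 tested genes of other endothelial transcription factors the median difference was 0.85, with 28 above 0, and without Normal Ms1608 it was 0.87, with 21 above 0. Nr2f2, the venous factor COUP-TFII, was at 4.07, 3.28 and 2.32 FPKM in MI with 0.558, 0.693 and 0.0353 FPKM in Normal. Tbx20, a T-box factor of heart and endocardium, was at 1.58, 10.1 and 2.59 FPKM in MI with 0.659, 0.617 and 0.0874 FPKM in Normal. Both had MI wholly above Normal, as did 25% of all tested genes, and the differences of 1.57 (SE 0.45, adjusted p = 0.245) and 1.71 (SE 0.61, adjusted p = 0.252) missed the limma threshold. The most abundant of the list were Id3, an inhibitor of basic helix-loop-helix factors, with a difference of 1.06 (limma adjusted p = 0.629), and Klf6, with 0.58 (limma adjusted p = 0.696). Without Normal Ms1608 these were -0.25 and 1.25.

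Of 10 tested partners of the TAL1 complex, 8 lay above 0 with a median of 0.82, and without Normal Ms1608 all 10 did, with a median of 0.96. Ssbp2, a protein that stabilises the LDB1 bridge of the complex, was at 11.2, 23.1 and 3.88 FPKM in MI with 0.984, 0.386 and 0.294 FPKM in Normal. MI lay wholly above Normal, as for 25% of all tested genes, and the difference was 2.89 (SE 0.72, limma adjusted p = 0.245). Tcf3, an E protein that pairs with TAL1, had a difference of 1.29 (limma adjusted p = 0.280). Lmo2, the bridging protein, was at 17.3 to 44.4 FPKM in MI and 10.9 to 29.7 FPKM in Normal, and Tcf4, another E protein, had a difference of -0.19 (limma adjusted p = 0.903), which was 0.0093 without Normal Ms1608.

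In the cascade upstream of Klf2 and Klf4, 7 of 8 tested genes lay above 0 with a median of 0.51, and without Normal Ms1608 8 of 8 did, with a median of 0.91. Mef2d, of the MEF2 family, had a difference of 0.79 (limma adjusted p = 0.281), and Krit1, Ccm2 and Heg1, of the cerebral cavernous malformation complex that restrains the cascade, had 1.48, 0.74 and 0.60 (limma adjusted p = 0.350, 0.691 and 0.704). Without Normal Ms1608 the last 3 differences were 0.81, 1.74 and 1.10. Like Klf2, Ccm2 was highest in Normal Ms1608, at 82.0 FPKM, whereas Heg1 was highest in MI Ms1537, at 48.5 FPKM. Among 8 tested targets of the Krüppel-like pair the median was 0.66, with 6 above 0, and without Normal Ms1608 0.64, with 7 above 0. S1pr1, a sphingosine receptor that KLF2 activates in lymphocytes, was at 70.5, 129 and 63.5 FPKM in MI with 66.5, 82.0 and 494 FPKM in Normal. Normal Ms1608 stood far above the other libraries for this gene. Cyp1b1, a flow-responsive enzyme, had a difference of 2.34 (limma adjusted p = 0.245), Vcam1, an adhesion molecule that KLF2 restrains, 1.66 (limma adjusted p = 0.402), and Ccl2, a monocyte chemokine, -0.32 (limma adjusted p = 0.931). Without Normal Ms1608 Vcam1 had 0.60 and Ccl2 1.01, and without MI Ms1537 Ccl2 had 1.52.

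Targets of ERG and FLI1 had a median of 0.70 over 14 tested genes, 12 of them above 0, and without Normal Ms1608 a median of -0.86 with 2 above 0. This list shares Cdh5, Tek, Tie1, Cldn5, Egfl7, Flt1, Kdr, Robo4 and Esam with the 12 endothelial markers. Of these, Cdh5, Tek, Cldn5 and Kdr are on the SoxF target list too, so the medians of the 3 lists are not independent. Egfl7, a secreted endothelial protein, was at 278, 716 and 207 FPKM in MI with 909, 669 and 5.27 FPKM in Normal. Kdr, the main VEGF receptor, had a difference of 0.79 (limma adjusted p = 0.789), Vwf 0.81 (limma adjusted p = 0.634) and the small GTPase gene Rhoj 1.51 (limma adjusted p = 0.333). Without Normal Ms1608 Kdr had -0.98 and Vwf 0.16. Cdh5, VE-cadherin and a target of both ETS and SoxF factors, was at 27.6, 78.8 and 6.50 FPKM in MI with 40.3, 24.7 and 1.20 FPKM in Normal. As for Erg, the extremes were MI Ms1537 and Normal Ms1608 for Cdh5. Targets of SoxF factors, Nr2f2, Vcam1, Kdr and Cdh5 among them, had a median of 0.48 over 11 tested genes, 10 above 0, and of -0.34 with 3 above 0 without Normal Ms1608.

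Fatty acid uptake genes downstream of MEOX2 and TCF15 had a median of 0.29 over 6 tested genes, 4 above 0, and of -1.02 with 1 above 0 without Normal Ms1608. Gpihbp1, which holds lipoprotein lipase on capillaries, was at 79.4, 176 and 58.6 FPKM in MI with 608, 355 and 3.32 FPKM in Normal. All MI libraries lay below Normal Ms1535 and Ms1537 and above Normal Ms1608. Fabp4, a fatty acid binding protein, had a difference of 0.98 (limma adjusted p = 0.779), Fabp5 0.55 (limma adjusted p = 0.741) and the transporter Slc27a4 -0.55 (limma adjusted p = 0.724), the last being highest in Normal Ms1608 at 11.7 FPKM. Without that library the differences turned to -1.36 for Fabp4, -0.28 for Fabp5 and 0.28 for Slc27a4. Over the 12 endothelial markers, 11 of them tested, the median was 0.64, and -0.92 without Normal Ms1608, where 0 of 11 lay above 0. Of the members, Tcf15 at -0.94 came closest to that median in the 5 libraries, and Klf2 at 1.51 lay farthest above it.

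Other cell types that the sort could hold were checked by lists as well. Platelet and megakaryocyte markers (7 genes), a lineage that uses Tal1 and Fli1, summed to 49.6 to 82.5 FPKM in MI and 2.57 to 36.8 FPKM in Normal, with up to 2 genes at 0 in a library. Pf4, their defining gene, was at 35.1, 68.2 and 59.2 FPKM in MI with 15.1, 30.6 and 2.27 FPKM in Normal. As for Tal1, the sums did not overlap between the groups, and Normal Ms1608 was the lowest library. The same held for the sums of the fibroblast, lymphatic and endocardial markers given below, so the pattern was not particular to this lineage. For single genes, 25% of all tested genes had MI wholly above Normal. Pf4 made up most of each sum, and the list medians overlapped, at 1.66, 0.27 and 1.36 in MI and 0.91, 0.78 and 0.05 in Normal. Itga2b was at 5.08, 0.209 and 16.8 FPKM in MI with 7.03, 3.40 and 0.184 FPKM in Normal. Ppbp, too, was lower in MI Ms1537 (0.0274 FPKM) than in Normal Ms1535 and Ms1537 (2.39 and 1.23 FPKM). Mast cell and basophil markers (7 genes), another lineage that uses Tal1, summed to 42.1 to 420 FPKM in MI and 10.7 to 96.5 FPKM in Normal, and Kit was at 4.80, 1.66 and 0.480 FPKM in MI with 0.718, 0.165 and 0.114 FPKM in Normal. Erythroid markers (8 genes, Hba-a1 among near-identical copies) summed to 432 to 9600 FPKM in MI and 1028 to 7233 FPKM in Normal, with up to 2 genes at 0. The part of these lineages in the level of Tal1 was not tested. Fibroblast markers (9 genes) summed to 905 to 5492 FPKM in MI and 190 to 821 FPKM in Normal. Mural markers (8 genes) summed to 25.7 to 33.4 FPKM in MI and 1.19 to 31.0 FPKM in Normal, and cardiomyocyte markers (8 genes) to 147 to 987 FPKM and 8.55 to 801 FPKM. Lymphatic (6 genes) and endocardial markers (6 genes) summed to 28.2 to 115 FPKM and 14.1 to 29.7 FPKM in MI, and to 1.08 to 21.3 FPKM and 1.91 to 9.95 FPKM in Normal, and their first genes, Prox1 and Npr3, were at most 0.291 and 0.504 FPKM in any library.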

How the data were processed

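RNA was sequenced from 6 libraries, 3 MI and 3 Normal, grouped by title. The deposited values are FPKM, computed by the authors before deposit, and STAR 2.4.2a, Cufflinks 2.2.1 and GRCm38 are named in the submitters' processing notes. The annotation release and strand setting are not given in the sources used here. Per the labels' protocols, RNA was amplified by in vitro transcription before library construction. Gene positions and lengths came from GENCODE M21.

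Genes reaching 1 FPKM in 3 or more libraries (10168) were tested with limma 3.58.1 (R 4.3.3, mean-variance trend, group only) on log2(FPKM + 1), with Benjamini-Hochberg adjustment and a threshold of 0.05. The fit was run on simulated data, with a pass required only at a replicate spread smaller than that of the members here. Recovery at the spread of the real libraries is not given here, so the simulation does not show that changes of the members would be found. Depth was read from genes with 1 annotated transcript: at length minus 150 bases, 90.8% to 92.9% of low values lay within 0.1 of a whole fragment, where even spacing gives 20%. The labels' protocol names a lower number of reads, which was not reconciled. Implied fragments use the longest transcript.

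The members and lists were chosen with earlier results of these data known. Named genes were all members, per list the 2 lowest unadjusted p and the 2 highest mean FPKM, the first gene of each marker list, and per member the 2 nearest profiles. Alternatives covered the pseudocount, filter, scaling, variance moderation, a replicate block and leaving out each library. Of the listed genes, 4 entries were not analysed here.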

Additional observations from a re-analysis of the deposited data

How the results depend on the processing

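No member passed the threshold under any alternative, and the pseudocount, filter and variance moderation kept the sign of every member's difference. The direction depended on scaling and on single libraries. The median of the members was -0.33 with median-ratio scaling, -0.078 with upper-quartile scaling and -0.40 with quantile scaling, against -0.028, 0.20 and -0.046 for all tested genes. Without Normal Ms1608, a setting combined with scaling after seeing the data, it was -0.84 (median-ratio) and -0.93 (quantile), against 0.0028 and -0.038. In these combinations limma called 2 and 2 genes higher in MI and 1 and 0 genes lower. Leaving out each library gave 1 to 452 genes higher and 0 to 7 lower. Both upper values came without Normal Ms1608, and 1 gene was called lower without MI Ms1537. The cause was not tested. The median of the members then ran from 0.038 to 1.01. Deviations from the group means correlated at r = -0.052, 0.098 and 0.087 for same-numbered libraries, and at -0.115 to 0.104 for libraries of unlike number. With 3 libraries a group and 1 that stands apart, these values cannot decide whether equal numbers mark a pairing. The labels do not state one, so the number entered only as a block among the alternatives. The replicate block left 1 gene higher and 0 lower and the same member differences, with a median of 0.66. After median-ratio scaling, differences turned to -0.00035 for Sox7, -0.77 for Sox17, -0.24 for Erg, -0.70 for Fli1, -0.42 for Klf2, -0.48 for Klf4, -0.073 for Meox2, -0.47 for Tcf15, -0.032 for Id3, -0.50 for Klf6, -0.26 for Lmo2, -0.30 for Ccm2, -0.45 for Heg1, -0.0012 for Vwf, -0.18 for Kdr, -0.038 for Cdh5, -0.53 for Fabp5, -0.11 for Fabp4 and -0.072 for S100a8. After quantile scaling, differences turned to -0.39 for Sox7, -0.98 for Sox17, -0.41 for Sox18, -0.60 for Erg, -0.47 for Fli1, -0.18 for Tal1, -0.33 for Meox2, -0.73 for Tcf15, -0.16 for Mef2d, -0.0071 for Heg1, -0.47 for Vwf, -0.29 for Kdr and -0.10 for Cdh5. After median-ratio scaling without Normal Ms1608, differences turned to -0.74 for Sox7, -1.19 for Sox17, -0.93 for Sox18, -1.40 for Erg, -0.47 for Fli1, -0.23 for Tal1, -0.15 for Klf4, -1.59 for Meox2 and -1.97 for Tcf15. After quantile scaling without Normal Ms1608, differences turned to -0.86 for Sox7, -1.23 for Sox17, -0.995 for Sox18, -1.39 for Erg, -0.48 for Fli1, -0.37 for Tal1, -1.50 for Meox2 and -1.86 for Tcf15. After upper-quartile scaling, differences turned to -0.52 for Sox17, -0.079 for Erg, -0.38 for Fli1, -0.078 for Klf2, -0.14 for Klf4, -0.31 for Tcf15, -0.15 for Klf6, -0.11 for Heg1, -0.013 for Kdr and -0.19 for Fabp5. With pseudocount 5, differences turned to 0.024 for Ccl2. With pseudocount 0.1, differences turned to 0.051 for Gpihbp1. Relative to endothelial markers, Cdh5 alone as the reference turned the difference to -0.27 for Sox7, -0.087 for Sox18, -0.28 for Erg, -0.25 for Tal1, -0.32 for Klf2, -0.36 for Klf4 and -0.10 for Meox2. Relative to endothelial markers, a pseudocount of 0.1 turned the difference to -0.16 for Klf2 and -0.22 for Klf4. Leaving out each library in turn changed the sign for some genes, whose differences ran from -0.014 to 1.22 for Sox7, -0.23 to 0.48 for Sox17, -0.39 to 1.26 for Erg, -0.034 to 0.55 for Fli1, -0.21 to 1.51 for Klf2, -0.56 to 1.76 for Meox2, -0.94 to 1.23 for Tcf15, -0.25 to 2.09 for Id3, -0.58 to 0.16 for Tcf4, -1.27 to 0.17 for S1pr1, -1.66 to 1.52 for Ccl2, -1.17 to 2.42 for Egfl7, -0.98 to 1.85 for Kdr, -0.34 to 1.85 for Cdh5, -1.03 to 0.28 for Slc27a4, -0.28 to 1.09 for Fabp5, -1.36 to 2.33 for Fabp4, -2.30 to 1.27 for Gpihbp1 and -1.92 to 0.60 for Hba-a1. The same for levels relative to the endothelial markers gave -0.21 to 0.91 for Sox7, -0.81 to 0.61 for Sox17, -0.019 to 0.45 for Erg, -1.02 to 1.36 for Fli1, -0.47 to 1.24 for Tal1, -1.20 to 2.36 for Klf2, -0.78 to 1.76 for Klf4 and -0.28 to 0.18 for Tcf15. FPKM values carry no counts, so the precision of low values is known only through the implied depth, and 3 libraries a group with 1 that stands apart limit every comparison.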
